A study of Zea mays with 4 samples.

Results

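The genes described here were counted in seedlings of the maize inbred line B73 and not at all in seedlings of a hybrid of A188 and B73. They are the IDs starting with Zm00001d that had a summed count of 10 or more over both B73 libraries and 0 in each hybrid library. The rule took 90 of the 22084 Zm00001d IDs, in a table of 22525 rows. The genes were thus chosen by their counts in all 4 libraries, and for that reason the difference between genotypes is given below as a description, without a test.

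The table holds 4 libraries of entire V3-stage seedlings of maize (Zea mays), with roots and shoots ground together, from plants kept in a greenhouse under 14 h of light and 10 h of dark. Of these, 2 came from the B73 inbred and 2 from an A188 x B73 hybrid, which the labels also call "HiII" and describe as an F1. In both genotypes the libraries are named RPI10 and RPI11. Whether these names mark separate plants is not given in the labels, so the spread between libraries may be technical. The labels give no treatment for either genotype.

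B73 is the line from which the maize reference genome was assembled. Maize inbred lines are known to differ both in sequence and in gene content: some genes of one line have no intact copy at the same place in another. An F1 plant carries a chromosome set from each parent, so an F1 with B73 as a parent has a B73 copy of each nuclear gene. "Hi-II" is in general use as a name for maize material derived from crosses of A188 with B73 and used in transformation. Whether the hybrid seedlings carried the genes described here was not measured by these files.

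Depth set what a count of 0 could show. Of B73, RPI10 held 275271 counts and RPI11 held 403858, against 1341976 and 883812 in the hybrid, so that the hybrid, where these genes had no count, was sampled more deeply. Scaling by the trimmed mean of M-values (TMM) gave factors of 1.31 and 1.27 in B73 and 0.761 and 0.795 in the hybrid. On that scale a gene with the same level in both genotypes had 1.98 counts over the hybrid libraries for each count over the B73 libraries, and 3.28 counts when library totals alone were used. Among shoot genes deposited by symbol, CAB1, which encodes a chlorophyll a/b-binding protein, had 530 and 495 CPM of the library total (counts scaled to a common library size) in B73 and 1454 and 1111 in the hybrid. The photosystem gene psbC had 8479 and 4687 in B73 and 22370 and 12660 in the hybrid, and FDX2, a ferredoxin gene, 36.3 and 39.6 against 183 and 147. The photosystem gene psaC had 1649 and 792 in B73 and 1080 and 481 in the hybrid, so that its groups overlapped. All 4 were counted in every library. Root markers were not checked.

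Most of the 90 genes were scarce. Their summed B73 count ran from 10 to 120 with a median of 16, and 62 of them had at most 19 counts. Exactly 10 counts, the lowest sum the rule allows, were found for 17 genes, among them Zm00001d000228 (7 in RPI10 and 3 in RPI11), Zm00001d003695 (3 and 7), Zm00001d006914 (5 and 5) and Zm00001d007503 (3 and 7). The mean TMM-scaled level in B73 ran from 9.78 to 138.5 CPM with a median of 18.1. Together the genes took 729 counts in RPI10, or 0.265% of the library, and 1100 counts in RPI11, or 0.272%. The most abundant gene ranked 211th among all rows by summed B73 count, and the median gene 2159th.

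The leading genes were Zm00001d045201 and Zm00001d045257. Zm00001d045201 had 51 counts in RPI10 and 69 in RPI11 of B73, and 0 in both hybrid libraries. Its B73 level was 138.5 ± 4.94 CPM (SD, n = 2 libraries). Zm00001d045257 had 40 and 57 counts in B73 and 0 in both hybrid libraries, a B73 level of 111 ± 0.113 CPM. By library totals its levels in RPI10 and RPI11 of B73 were 145 and 141 CPM. The small SD thus holds for the TMM scale only and does not measure counting error. The groups did not overlap for either gene, which the rule fixes, and between the B73 libraries both levels differed by little. These genes held 217 of the 1829 B73 counts of the set, or 11.9%.

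Next came Zm00001d016782, with 25 and 49 counts and 82.7 ± 18.6 CPM. No other gene reached 50 summed counts. Zm00001d022485 had 16 and 28 counts (49.7 ± 7.24 CPM), and Zm00001d048764 had 21 in each library (49.8 ± 12.3 CPM). Of these, Zm00001d048764 had the higher CPM in RPI10, the shallower library, since equal counts came from unequal totals.

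Zm00001d047438 had 17 and 21 counts, Zm00001d032492 had 11 and 26, Zm00001d042409 had 13 and 24, and Zm00001d015383 had 12 and 21. Their mean levels lay between 37.2 and 44.2 CPM. With Zm00001d003702 (7 and 24 counts), Zm00001d031159 (20 and 10) and Zm00001d032669 (13 and 17), these complete the 12 genes with 30 or more counts. Zm00001d034477 had 15 and 14 counts, Zm00001d045247 had 8 and 21, and Zm00001d052011 had 13 and 16. Below these, levels fell off without a gap down to the 10-count limit. None of these IDs is paired with a gene name or a function in the tables used here.

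**Figure D1:**
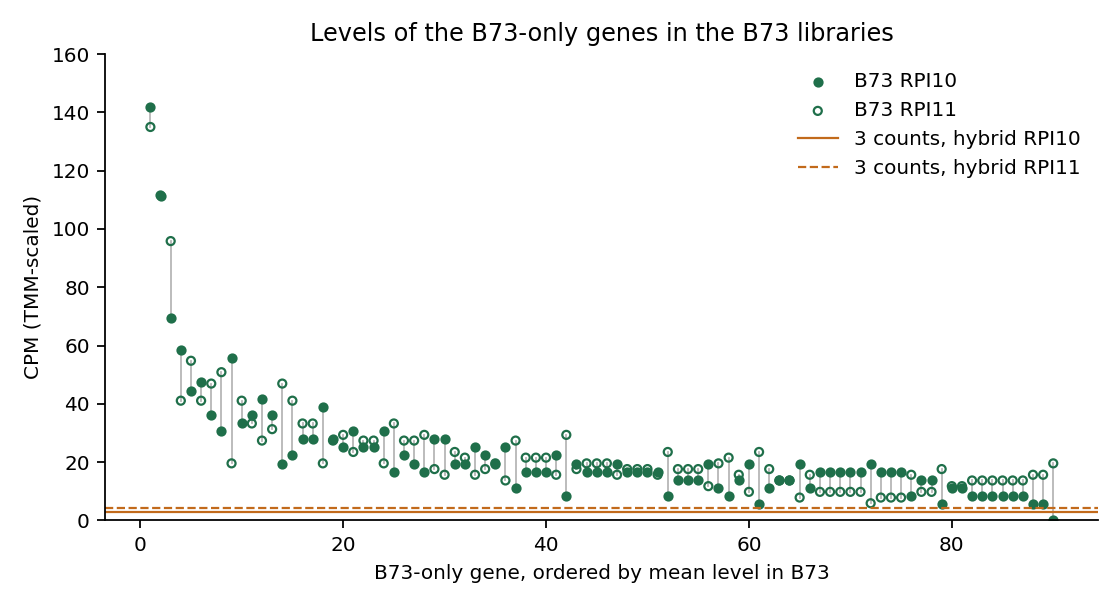
Level in each B73 library (TMM-scaled CPM, y axis) of the 90 B73-only genes, ordered by mean level (x axis), with a grey line joining the libraries of 1 gene. The orange lines mark what 3 counts are worth in the hybrid libraries, 2.94 and 4.27 CPM; a few genes lead, from 138.5 CPM downward, and most lie between 10 and 40 CPM.

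A count of 0 in a library was read against a floor of 3 counts. That floor was worth 2.94 CPM in the RPI10 library of the hybrid and 4.27 CPM in its RPI11 library on the TMM scale, and the bounds below divide the mean B73 level by the mean of these floors. Zm00001d045201 was at least 38.4-fold lower in the hybrid, Zm00001d045257 at least 30.9-fold, and Zm00001d016782 at least 22.9-fold. Zm00001d048764, Zm00001d022485 and Zm00001d047438 followed with bounds of at least 13.8-fold, 13.8-fold and 12.3-fold. Over the set the bound ran from 2.71-fold (Zm00001d023979) to 38.4-fold with a median of 5.03. It reached 10-fold for 10 genes and 5-fold for 46, and lay under 4-fold for 29. Scaling by library totals alone gave higher bounds, from 4.40 to 63.3 with a median of 8.27, and then 87 genes reached 5-fold. The floors cover counting error in the hybrid only. The B73 level enters the bounds as measured, without its own counting error, and 62 genes had at most 19 B73 counts. For such scarce genes the true fold could lie under the bound. The intervals of shares given below cover counting error only.

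The bounds can also be read as counts. With the same TMM-scaled level in both genotypes, the hybrid libraries together would have held 19.8 counts of a gene at the 10-count limit, 31.7 of the median gene and 237.7 of Zm00001d045201. At 50% of the B73 level the corresponding numbers are 9.90, 15.8 and 118.8 counts. The files held 0 in each case. By library totals the numbers at equal level are 32.8, 52.4 and 393 counts. The choice of scale therefore moves the expected counts by over 1.5 times, and neither scale brings one near 0.

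Genes without a hybrid count were the exception at the B73 levels the rule covers. Of the 3849 Zm00001d IDs with 10 or more summed B73 counts, 90 (2.34%) were at 0 in both hybrid libraries. The share was 2.80% of 2215 IDs with 10 to 19 B73 counts (exact Clopper-Pearson 95% interval 2.15% to 3.57%) and 2.14% of 1168 IDs with 20 to 49 (1.39% to 3.14%). Higher up it was 2 of 259 IDs with 50 to 99 counts (0.772%, interval 0.0937% to 2.76%) and 1 of 207 IDs with 100 or more (0.483%, interval 0.0122% to 2.66%). The intervals of neighbouring classes overlap. Below the limit of the rule the share was larger: 5.35% of IDs with 6 to 9 B73 counts, 11.3% with 3 to 5 and 35.0% with 1 to 2. IDs with 10 to 19 B73 counts had a median of 15 counts over the hybrid libraries, and IDs with 20 to 49 had a median of 36. The median of 15 is fewer than the 19.8 counts that equal level on the TMM scale gives for a B73 sum of 10. The usual ID of that class thus fell short of the counts given above for equal level.

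**Figure D2:**
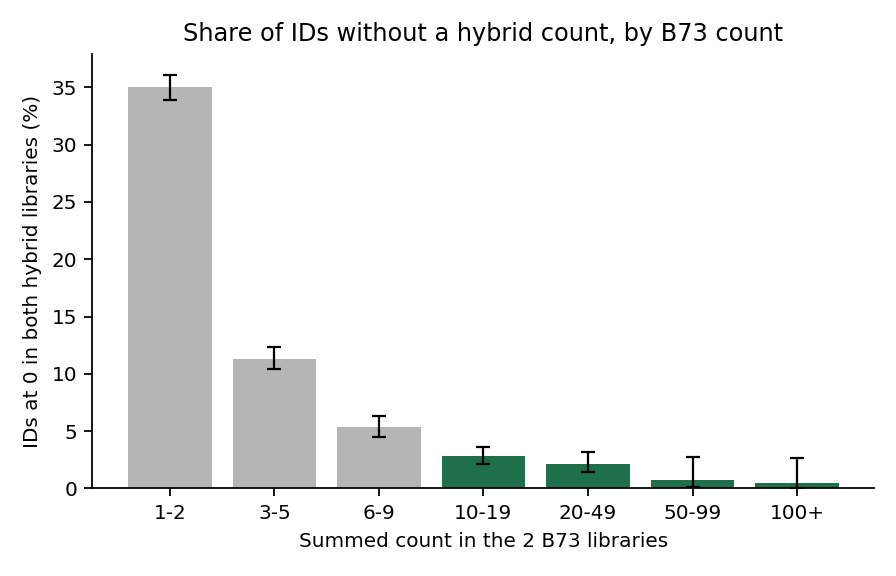
Share of Zm00001d IDs with no count in either hybrid library (percent, y axis) by summed B73 count (x axis); bars in green hold the 90 B73-only genes, and error bars are exact 95% intervals. The share falls from 35.0% of IDs with 1 to 2 counts to 2.80% with 10 to 19 and 0.483% with 100 or more.

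Each hybrid library alone left more IDs at 0. Of the same 3849 IDs, 172 had no count in RPI10 of the hybrid and 186 none in RPI11, and 90 had none in either. When every library was drawn at random, once, to the smallest total of 275271 counts, 250 IDs met the rule. Of the 90 genes, 69 were among them, and the other 21 fell under 10 B73 counts. The remaining 181 IDs had hybrid counts at full depth, with a median of 4 counts. The draw made library totals equal, but TMM factors still differed between the genotypes, so depth on the TMM scale was not equal. The genes below are those of the full depth.

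Just outside the rule were 83 IDs with 10 or more B73 counts and a single hybrid count, which lay in RPI10 for 45 of them. The most abundant were Zm00001d039101 (59 and 78 counts in B73, 1 and 0 in the hybrid), Zm00001d019246 (55 and 76, then 0 and 1), Zm00001d033206 (41 and 68, then 1 and 0), Zm00001d052089 (24 and 29, then 1 and 0) and Zm00001d035007 (21 and 29, then 0 and 1). The first had a higher B73 count than any gene inside the rule. A further 79 IDs had 2 hybrid counts and 91 had 3.

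With 0 in the hybrid and too few B73 counts were 15 IDs at a sum of 9 and 25 at a sum of 8. Among these, 5 IDs close in number had nearly the same counts. Zm00001d002203, Zm00001d002209 and Zm00001d002223 each had 2 counts in RPI10 and 7 in RPI11 of B73, and Zm00001d002215 and Zm00001d002229 each had 2 and 6. They were picked out after their values were seen. Whether reads of near-identical copies were counted for several IDs is not stated in the sources used here. No run of B73-only genes described below had 2 members with equal counts in both B73 libraries. Outside the runs, Zm00001d004344 and Zm00001d004346 lie close to the B73-only gene Zm00001d004343. Each had 7 and 12 counts in B73 and a log2 fold change of -2.37, and both enter the neighbours called lower below as separate IDs.

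The split between the B73 libraries was not used by the rule and could be compared with other IDs. RPI10 held 40.5% of all B73 counts and 39.9% of the summed counts of the 90 genes (exact 95% interval 37.6% to 42.1%). Relative to the library total, 52 genes were higher in RPI11 and 38 in RPI10. Counts were found in both B73 libraries for all but 1 gene, and 64 genes had at least 5 counts in each. For a single gene the RPI10 share had a median of 39.0% and an interquartile range of 31.4% to 50%.

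The exact 95% interval of the RPI10 share left out 40.5% for 2 of the 90 genes (2.22%). The same held for 203 of 3591 other Zm00001d IDs with 10 to 120 B73 counts (5.65%). The share among others rose with count, and most of the 90 genes lie in the lowest class. Among IDs with 10 to 19 counts it held for 1 of 62 B73-only genes and for 3.07% of 2153 others. Among IDs with 20 to 49 counts it held for 1 of 25 B73-only genes and for 7.79% of 1143 others. With 50 or more counts it held for 0 of 3 and for 16.3% of 295. At such counts the intervals are wide, so that agreement within them is a limit of the depth as well as a property of the libraries. The 2 B73-only genes whose interval left out 40.5% were Zm00001d031159 and Zm00001d023979. Zm00001d031159 had 20 counts in RPI10 and 10 in RPI11, a share of 66.7% (interval 47.2% to 82.7%). Zm00001d023979, with 0 in RPI10 and 10 in RPI11 (upper limit 30.8%), was the only gene of the set seen in a single library.

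The other extremes had intervals that held 40.5%. The highest shares, beside Zm00001d031159, were 70.0% for Zm00001d000228 (7 and 3 counts) and 63.6% for Zm00001d031619 (7 and 4). The lowest, beside Zm00001d023979, were 14.3% for Zm00001d025923 (2 and 12) and 16.7% for Zm00001d038414 (3 and 15). The 3 genes with 50 or more counts had shares of 42.5%, 41.2% and 33.8%, all with intervals that held 40.5%.

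**Figure D3:**
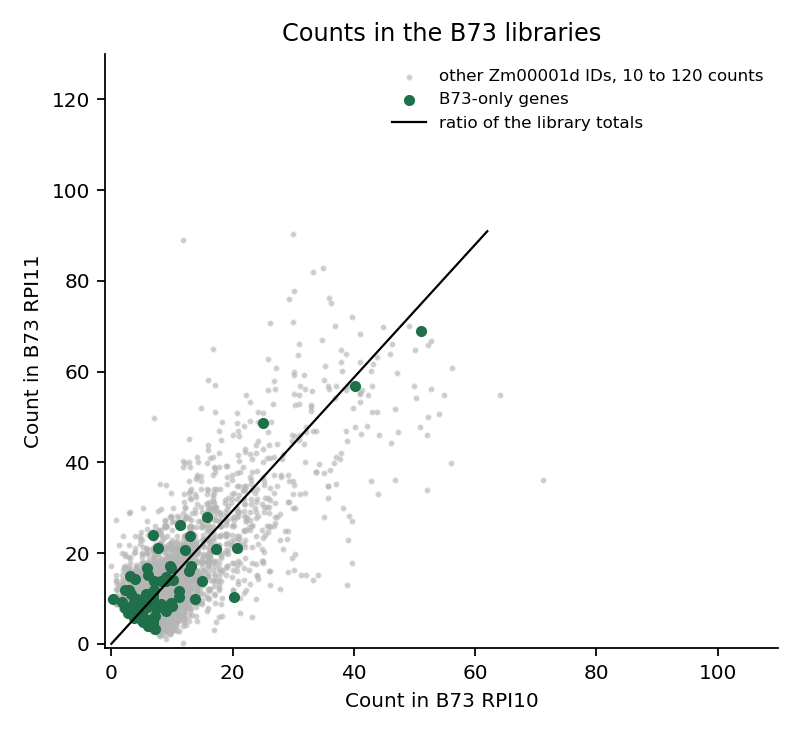
Count in the RPI11 library (y axis) against the count in the RPI10 library (x axis) of B73, for the 90 B73-only genes (green) and 3591 other Zm00001d IDs with 10 to 120 summed counts (grey), with a small random shift so that points do not hide each other. The black line is the ratio of the library totals; the green points scatter around it, with Zm00001d031159 (20 and 10) farthest to its right.

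A model with genotype and RPI code as terms was fitted over all 3282 IDs that passed the edgeR filter on low counts. Of the 90 genes 48 passed, with summed B73 counts of 15 or more, and 42 did not. Between the codes, 107 IDs (3.26%) passed the threshold of 0.05 on the adjusted p of edgeR's quasi-likelihood test (Benjamini-Hochberg), and 0 of the 48 genes did, with 1 at an unadjusted p under 0.05. These genes have no hybrid count, so their comparison of codes sets 1 B73 library against 1, and nothing is read from this count either way. In the fit of genotype, all 48 were called lower in the hybrid, against 25.4% of IDs called lower in all. The rule took these genes for that contrast, so that count supports nothing.

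The numbers in Zm00001d IDs were given largely in order along the chromosomes, as is known of this annotation in general, but no table used here gives positions for them, so nearness is stated in ID numbers only. The 90 genes were spread widely. Of the 55 blocks of 1000 ID numbers, 41 held at least 1 of them, and the median gap between successive genes was 457 numbers. The block of IDs beginning Zm00001d003 held most, 7 of its 73 IDs with 10 or more B73 counts (9.59%), against 2.34% over all such IDs. In the block beginning Zm00001d045 it was 5 of 75 (6.67%) and in that beginning Zm00001d038 6 of 103 (5.83%). No test was made of these differences.

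Genes whose ID numbers differed by at most 10 were joined into runs, which gave 3 runs with 9 genes in all. The longest run had 4 genes: Zm00001d045247 (8 and 21 counts in B73), Zm00001d045256 (5 and 9), Zm00001d045257 (40 and 57) and Zm00001d045260 (2 and 9). The other leading gene, Zm00001d045201, lies 46 numbers before the run. A run of 3 held Zm00001d003695 (3 and 7), Zm00001d003701 (5 and 9) and Zm00001d003702 (7 and 24). A run of 2 held Zm00001d003237 (9 and 15) and Zm00001d003240 (8 and 14), with Zm00001d003217 (9 and 8) 20 numbers before it. Among the 195 IDs counted in the hybrid only, by the mirror of the rule, 10 lay in runs, none longer than 2. That set comes from deeper libraries, and the difference was not tested.

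IDs between or beside these genes were looked at for a 0 in the hybrid. Of the 3312 Zm00001d IDs at 0 in the hybrid, 3077 had 1 to 9 B73 counts and 90 had 10 or more. That a listed ID at 0 in the hybrid has B73 counts is thus nearly fixed by which IDs are listed. From Zm00001d003226 to Zm00001d003240 the table lists 8 successive IDs, and each had B73 counts and no hybrid count. Summed over the 8, B73 had 27 counts in RPI10 and 34 in RPI11, of which Zm00001d003237 and Zm00001d003240 gave most. At equal level on the TMM scale the hybrid would have had 120.8 counts. Apart from these 2 genes, the IDs of the stretch had 1 to 6 summed B73 counts each. In that range 0 in the hybrid was found for 5.35% (6 to 9 counts) to 35.0% (1 to 2 counts) of all IDs. The stretch ended on both sides at IDs with hybrid counts: Zm00001d003224 had 0 and 2 counts in B73 and 2 and 2 in the hybrid, and Zm00001d003242 had 1 and 4 in B73 and 4 and 5 in the hybrid. This was the longest such stretch in the table, where 6 stretches had 5 or more IDs.

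In the run of 3, the ID between its genes, Zm00001d003696, also had no hybrid count, against 3 and 6 counts in B73. It missed the rule by a single count. The 4 successive IDs together had 18 and 46 counts in B73. Beside them, Zm00001d003690 and Zm00001d003709 each had 1 hybrid count and no B73 count, so that the edges of this stretch rest on single counts.

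The run around Zm00001d045257 was interrupted. Zm00001d045251 had 11 and 18 counts in B73 and 4 and 9 in the hybrid, and Zm00001d045254 had 85 and 224 in B73 and 35 and 47 in the hybrid. Both were called lower in the hybrid (log2 fold change -2.07 and -2.76, edgeR adjusted p = 0.00847 and 0.000666). Then came 4 successive IDs without a hybrid count, from Zm00001d045256 to Zm00001d045260, with 48 and 76 counts in B73. The next ID, Zm00001d045261, was higher in count in the hybrid, with 48 and 20 against 5 and 8 in B73. It was called higher there (log2 fold change 1.35, edgeR adjusted p = 0.0374). Counted and uncounted IDs thus alternated within a few numbers.

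**Figure D4:**
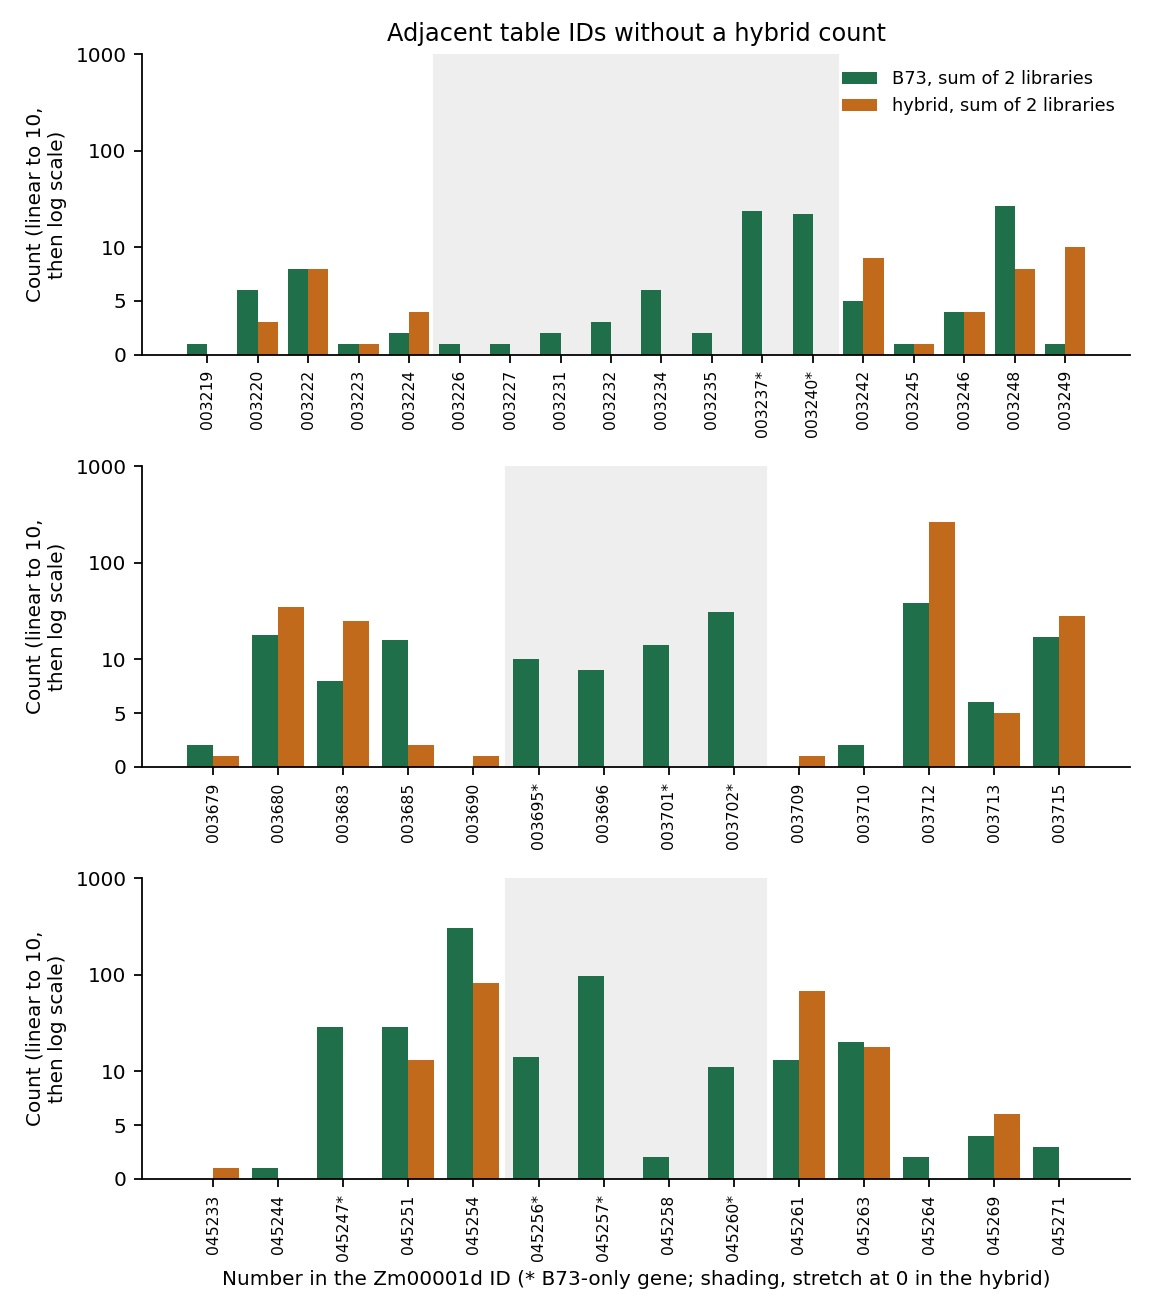
Summed counts (y axis, linear to 10 and logarithmic above) of successive Zm00001d IDs in the table (x axis, in order of ID number) around 3 stretches without a hybrid count, shaded; green bars are the sum of the B73 libraries, orange bars the sum of the hybrid libraries, and asterisks mark B73-only genes. The shaded stretches of 8, 4 and 4 IDs hold 61, 64 and 124 B73 counts and no hybrid count, and IDs with hybrid counts lie close on both sides.

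Such stretches were few. Of the 90 genes, 58 stood alone, with hybrid counts at the nearest listed ID on either side, and 32 lay in a stretch of at least 2 IDs at 0. In a stretch of 4 or more lay 12 genes, in 7 stretches. Over all Zm00001d IDs 15% were at 0 in the hybrid, but that is a share of single IDs and not of stretches. How often other IDs lay in stretches of these sizes is not given here, so these numbers are not read as particular to the 90 genes. The further 4 stretches of this kind each held 1 gene, Zm00001d016393 (3 and 8 counts), Zm00001d025720 (5 and 7), Zm00001d036932 (6 and 4) and Zm00001d038414 (3 and 15). Around Zm00001d038414, its neighbours Zm00001d038413 (5 and 3), Zm00001d038415 (1 and 4) and Zm00001d038418 (5 and 3) also had B73 counts and none in the hybrid.

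Neighbouring IDs with 1 to 9 summed B73 counts, too few for the rule, were compared by their distance to a B73-only gene. Within 10 ID numbers, the number at 0 in the hybrid was 114 of 476 (23.9%, exact 95% interval 20.2% to 28.0%), and at over 50 numbers 2596 of 11749 (22.1%, interval 21.3% to 22.9%). Of IDs with 3 to 5 B73 counts, 18.2% of 88 were at 0 within 5 numbers (interval 10.8% to 27.8%) and 11.1% of 3632 at over 50 numbers (10.1% to 12.2%). Of IDs with 6 to 9 counts the shares were 10.0% of 60 (3.76% to 20.5%) and 5.15% of 2137 (4.25% to 6.17%). Of IDs with 1 to 2 counts they were 35.6% of 87 (25.6% to 46.6%) and 34.8% of 5980 (33.6% to 36.0%). Within 10 numbers the shares were 15.1% for 3 to 5 counts and 9.35% for 6 to 9. The intervals overlap in each pair. Leaving out the 12 genes in stretches of 4 or more, the share of IDs with 1 to 9 counts within 10 numbers was 21.5% (17.7% to 25.7%). Within 5 numbers it was then 17.1% of 210 (12.3% to 22.9%), against 22.6% of 235 with those genes kept. The 12 genes were left out for having IDs at 0 beside them, which takes out IDs at 0. A lower share thus followed from that choice, and nothing is read from it. All these shares were computed after the stretches had been seen.

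**Figure D5:**
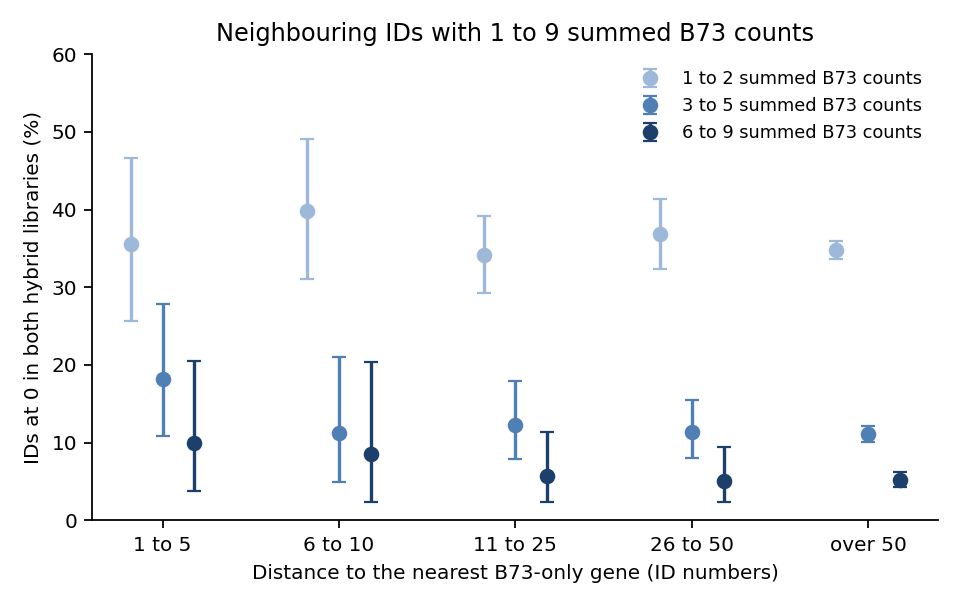
Share of Zm00001d IDs at 0 in both hybrid libraries (percent, y axis) by distance in ID numbers to the nearest B73-only gene (x axis), for IDs with 1 to 2, 3 to 5 and 6 to 9 summed B73 counts; error bars are exact 95% intervals and the B73-only genes are left out. Among IDs with 3 to 5 counts the share is 18.2% within 5 numbers and 11.1% at over 50, with overlapping intervals. Among IDs with 1 to 2 counts it is 35.6% and 34.8%.

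Among neighbours with enough counts to test, calls went in both directions. Of the 110 tested Zm00001d IDs within 10 numbers of a B73-only gene, 28 (25.5%) were lower and 34 (30.9%) higher in the hybrid by edgeR's quasi-likelihood test (threshold 0.05 on the adjusted p). Over all 3138 tested Zm00001d IDs 25.4% were lower and 24.9% higher. That background includes the 48 tested B73-only genes, all called lower because of the rule, while the neighbours do not. The share lower was close to the background and the share higher lay above it. Neither difference near these genes was tested. The median log2 fold change was -0.05 near them and -0.05 over all. By library totals 38.2% of the neighbours were lower and 17.3% higher, against 41.5% and 14.4% over all.

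Single neighbours changed strongly in either direction. Zm00001d026621, the number after the B73-only gene Zm00001d026620 (7 and 9 counts), had 32 and 56 counts in B73 and 7 and 2 in the hybrid. It fell from 99.3 ± 14.5 to 4.85 ± 2.83 CPM (log2 fold change -4.23, edgeR adjusted p = 0.000167). Zm00001d033160, 2 numbers from Zm00001d033158 (6 and 5 counts), had 10 and 19 counts in B73 and 1 in each hybrid library, and fell by 4.62 on the log2 scale (edgeR adjusted p = 0.000243). Both hybrid values lay under both B73 values for each. Zm00001d038424, after the stretch around Zm00001d038414, had 13 and 16 counts in B73 and 0 and 1 in the hybrid (edgeR adjusted p = 0.000243).

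The other neighbours named for the size of their fall were Zm00001d032662, with 6 and 8 counts in B73 and 0 and 1 in the hybrid, and Zm00001d003685, with 8 and 8 in B73 and 2 and 0 in the hybrid (edgeR adjusted p = 0.000649 and 0.000940). Zm00001d003685 lies 10 numbers before Zm00001d003695, and its call was lost with DESeq2 (adjusted p = 0.106) and without the RPI10 or the RPI11 library of the hybrid (edgeR adjusted p = 0.0509 and 0.111). Its low hybrid counts leave the size of the fall uncertain. Zm00001d032662 had no value under those settings, so its call was not checked there.

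In the other direction, Zm00001d043170, 6 numbers from Zm00001d043164 (6 and 10 counts), had 27.8 ± 7.77 CPM in B73 and rose to 242 ± 16.6 (log2 fold change 3.09, edgeR adjusted p = 0.000247). Zm00001d043167, 3 numbers from the same B73-only gene, had 0 and 3 counts in B73 and 33 and 31 in the hybrid (edgeR adjusted p = 0.00220). Zm00001d038047, 2 numbers from Zm00001d038049 (4 and 9 counts), rose from 14.2 ± 3.51 to 156 ± 27.9 CPM (log2 fold change 3.48, edgeR adjusted p = 0.000243). Both hybrid libraries lay above both B73 libraries for each of these. Zm00001d049541, 7 numbers from Zm00001d049534 (10 and 14 counts), had 0 and 2 counts in B73 and 76 and 38 in the hybrid (edgeR adjusted p = 0.000348).

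Zm00001d015377 showed the mirror pattern beside a B73-only gene. It had 0 counts in both B73 libraries and 28 and 27 in the hybrid (edgeR adjusted p = 0.000553), and lies 6 numbers from Zm00001d015383, which had 12 and 21 counts in B73 and 0 in the hybrid. In all, 6 of the 195 IDs counted in the hybrid only lay within 10 numbers of a B73-only gene. Of the 21939 Zm00001d IDs fitted without a filter on low counts, 745 that were not B73-only genes lay as near. The 6 IDs are thus not read as a tendency to lie beside these genes.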

How the data were processed

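The authors deposited 1 table of whole-number counts per ID, with 1 column for each of the 4 libraries. Libraries followed a modified CEL-Seq2 with unique molecular identifiers, per the labels' protocols. The submitters' processing notes name CASAVA 1.4, HISAT2, UMI-tools and the build B73 RefGen_v4. The counting tool, the treatment of reads that match several genes and whether counts were collapsed by identifier are not given in the sources used here. The RefSeq table used here names 0 of the Zm00001d IDs, so no gene name, position or sequence is given.

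The members and lists were chosen with earlier results of these data known. Counts were tested on the whole table with edgeR 4.0.16 in R 4.3.3 (filterByExpr with a minimum count of 10, TMM, quasi-likelihood test, Benjamini-Hochberg, threshold 0.05), with genotype as the only term, or with genotype and RPI code for the comparison of codes. CPM values are counts per TMM-scaled library total, except where the text says CPM of the library total. Log2 fold changes are hybrid minus B73. Intervals of shares are exact (Clopper-Pearson, 95%, scipy 1.17.1). Both steps were also run on simulated data, with no outcome given here. For the fit, the IDs changed in the simulation had higher counts than most B73-only genes. Its behaviour at such low counts was thus not tested.

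Named IDs were the 2 leading genes, the 15 with the highest summed B73 count, those in runs, the 3 highest and 3 lowest RPI10 shares, 4 at the lower limit, the 5 most abundant with 1 hybrid count, and the 5 called neighbours with the largest fold change in each direction. Others, such as the further IDs in stretches, were named after their values were seen. Alternatives were other count limits, drawing to equal totals, other scalings (library totals, DESeq2 size factors), other filters, DESeq2 1.42.0, other windows and gaps, the RPI code as a block, and leaving out each library.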

Additional observations from a re-analysis of the deposited data

How the results depend on the processing

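The number of B73-only genes moved with each limit, from 90 to 311 with a minimum of 5 B73 counts and 28 with 20, 173 with at most 1 and 343 with at most 3 hybrid counts, and 250 with every library drawn to the smallest total, which leaves TMM-scaled depth unequal. Leaving out each library gave 21 (without RPI11 of B73), 44 (without its RPI10), 172 and 186 (without RPI11 or RPI10 of the hybrid). As a share of B73-expressed IDs, 2.34% became 8.05% in that draw and 1.53% to 4.83% without a library. With a count required in each B73 library 89 remained. The median bound of 5.03 became 8.27 with library totals, 4.30 with DESeq2 size factors and 4.25 to 6.17 without a library. The RPI10 share left out the expected share for 2 or 3 genes under each expectation. The comparison of codes sets 1 B73 library against 1 for these genes, so its count of 0 under each setting says nothing about stability.

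The 9 genes in runs became 14 with a gap of 25 and 27 with 50, and 52 IDs with a minimum of 5 counts.

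Of 110 neighbours, 28 lower and 34 higher became 17 and 15 of 58 within 5 numbers (median log2 fold change -0.33), 58 and 63 of 243 within 25 and 102 and 125 of 466 within 50 (0.13), against 25.4% and 24.9% over all IDs (-0.05). Settings of the fit moved all IDs too. At a threshold of 0.01 there were 16 and 22 (16.7% and 16.6% over all IDs), with DESeq2 6 and 20 of 172 (median 0.35; over all IDs 4.11%, 10.0% and 0.26), and with 10 counts in every library 8 and 8 of 30 (-0.26; over all IDs 19.1%, 21.3% and -0.14). Library totals gave 42 lower and 19 higher, with a median of -0.77 near these genes and over all IDs, and DESeq2 size factors a median of 0.17 in both. Without a library there were 6 to 19 lower and 22 to 35 higher, with medians from -0.07 to 0.29, against -0.19 to 0.11 over all IDs. These fits tested 107 to 165 neighbours. In each of them, higher calls outnumbered lower calls over all IDs as well. The counts are thus not read as particular to these neighbours. Where a library was left out, the lone sample of its genotype is assumed to vary like the others. Fitting the RPI code as a replicate block gave 30 lower and 37 higher (-0.02; over all IDs 27.4%, 28.9% and -0.06). Deviations of same-code libraries correlated at 0.293 across IDs, but no label says that the codes pair the samples. Of 100 possible values for the 10 named neighbours under other settings of the fit, 21 were not computed, since the ID failed the filter or had no adjusted p. Zm00001d032662 had none with DESeq2, with 10 counts in every library or with any library left out, so its call was not checked there. Of the 79 computed, 76 kept direction and call and 3, all of Zm00001d003685, lost the call.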
